A study of Mus musculus with 16 samples.

Results

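The genes described here encode the amyloid precursor protein, its close relatives and the enzymes that cut or clear its products. They are App, Aplp1, Aplp2, Bace1, Psen2, Ncstn, Psenen, Ide and Mme, 9 of the 32285 genes listed in the count matrices, and were chosen by symbol. RNA of hippocampal nuclei was read in 16 females of 9 months, 1 library per animal. Each of 4 groups held 4 animals: the labels cross Ch25h+/+ with Ch25h-/- (Ch25h encodes cholesterol 25-hydroxylase) and Tau- with Tau+. The tau line, its promoter and the strain are not given in the sources used here. Values are given per library and cell class.

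APP is a membrane protein that can be cut first by an alpha-secretase or by the beta-secretase BACE1 and then by gamma-secretase, and the beta and gamma cuts release amyloid beta. Gamma-secretase is a complex of a presenilin, nicastrin, PEN-2 and APH-1, and also cuts Notch and many other membrane proteins. Neprilysin and insulin-degrading enzyme are proteases that degrade amyloid beta. Neurons are the usually cited source of amyloid beta in the brain, and oligodendrocytes also express APP and BACE1.

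The libraries held 51270831 to 84870650 unique molecular identifiers (UMIs, each a counted RNA molecule). A total of 136828 nuclei were kept, 7601 to 10567 per library, of which 129278 were placed in 15 classes by the marker genes of each cluster. The class names were rebuilt from markers and mean "like" that cell type, for example microglia-like. The classes with enough nuclei for a test in every library were granule neurons of the dentate gyrus (DG, 21994 nuclei), pyramidal neurons of the CA fields (20259), further excitatory neurons (22221, called other excitatory below) and inhibitory neurons (10969), and of the glia microglia (6113), oligodendrocytes (22841), their precursors (OPC, 3823) and astrocytes (13951). Microglia were the shallowest of these, with 177 to 644 nuclei per library and a median of 1448 UMIs per nucleus, against 9574 in CA pyramidal neurons. UMIs of the targeted gene Ch25h numbered 38 in the Ch25h+/+ Tau- libraries together, 94 in Ch25h+/+ Tau+, 75 in Ch25h-/- Tau- and 96 in Ch25h-/- Tau+. They were therefore not lower in the libraries labelled Ch25h-/-, and the deleted part of the gene is not given in the sources used here, so a 3' tag outside it may still be counted. The tau state was not checked in the data. Every group name below is the label's, and every Ch25h and tau direction rests on it.

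Levels are CPM values, the UMIs of a gene relative to all UMIs of its class in a library. They are compared between classes and groups, and not between genes, whose lengths differ. Of a level, the ambient share is the percentage that free RNA, as read in barcodes with under 100 UMIs, accounts for.

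In the GENCODE M21 annotation of GRCm38, App spans chr16:84949685-85173766 on the minus strand and holds 3 antisense genes, among them Gm10791. Aplp1 lies at chr7:30434982-30445535 (minus strand), 116.328 kb from Psenen at chr7:30561863-30563627 (minus strand). Psenen is only 1.765 kb long and overlaps U2af1l4 on the other strand. Aplp2 lies at chr9:31149557-31211815 (minus strand) and Bace1 at chr9:45838580-45864399 (plus strand), where it overlaps Rnf214 and Gm16536. Psen2, at chr1:180227004-180263438 (minus strand), overlaps Gm31728. Ncstn, at chr1:172066013-172082795 (minus strand), overlaps Copa. Ide lies at chr19:37268743-37337852 (minus strand), 2.79 Mb from Ch25h, and Mme at chr3:63241537-63386030 (plus strand). Each gene that overlaps App, Bace1, Psen2, Ncstn or Psenen lies on the opposite strand. Reads of the overlapping genes can be told apart only if strand was used in counting, which is not given in the sources used here.

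The promoters of the 3 APP family genes are shown because App and Aplp1 hold the only steps between neighbouring classes without overlap below, with Aplp2 as their relative. Each run is the 250 bases before the RefSeq start (GRCm38.p6), 5′ to 3′ on the gene's strand, with the capitals marking GGGCGG, the GC box bound by SP1-type factors.
App, chr16:85173708-85173957 (minus strand): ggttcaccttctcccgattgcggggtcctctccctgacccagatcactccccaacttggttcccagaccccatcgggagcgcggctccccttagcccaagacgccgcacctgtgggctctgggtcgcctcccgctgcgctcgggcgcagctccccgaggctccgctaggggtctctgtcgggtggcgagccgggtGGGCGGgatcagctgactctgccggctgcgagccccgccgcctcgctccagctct
Aplp1, chr7:30445583-30445832 (minus strand): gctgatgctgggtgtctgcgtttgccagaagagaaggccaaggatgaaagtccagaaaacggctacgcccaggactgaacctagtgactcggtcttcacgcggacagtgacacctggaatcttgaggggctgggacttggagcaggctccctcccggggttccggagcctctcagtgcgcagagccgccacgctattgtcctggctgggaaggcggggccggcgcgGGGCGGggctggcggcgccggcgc
Aplp2, chr9:31211849-31212098 (minus strand): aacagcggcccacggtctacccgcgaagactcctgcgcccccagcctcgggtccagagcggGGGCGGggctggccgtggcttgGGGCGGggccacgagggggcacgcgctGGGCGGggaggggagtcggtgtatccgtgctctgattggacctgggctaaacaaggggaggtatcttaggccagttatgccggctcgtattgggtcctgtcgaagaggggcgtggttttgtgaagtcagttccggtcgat
The motifs searched on both strands were GGGCGG, the TATA box TATAAA, the cyclic AMP response element TGACGTCA and the E-box motif CACGTG. The App and Aplp1 windows each held 1 GC box and the Aplp2 window 3, with none of the other motifs. Of all 32851 promoter windows, 32.7% held GGGCGG, 12.4% TATAAA, 1.55% TGACGTCA and 6.02% CACGTG. The GC content of the printed windows was 70.8% for App, 66% for Aplp1 and 66.4% for Aplp2, against a median of 52.4% over all windows. RefSeq windows were matched for 8 of the 9 genes, 12 windows in all, of which 7 held a GC box and 0 a TATAAA.

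App and Aplp1 were both highest in oligodendrocytes. App, the precursor of amyloid beta, stood at 1265 ± 106 CPM there (SD, n = 16 libraries), with a lowest library of 1088 and a highest of 1468. Endothelial nuclei followed at 1145 ± 254 (n = 13), and oligodendrocytes were above them in only 8 of 13 libraries, so the order of these 2 classes was within the spread. The endothelial class held only 314 nuclei, from a cluster with 40.2% doublets before their removal. That cluster had 8 mural markers besides its 8 endothelial ones. Cajal-Retzius neurons, an early-born type, stood at 711 ± 121 (n = 16, 683 UMIs in all) and choroid plexus at 610 ± 85.9 (n = 14). The other neuronal classes were lower: 526 ± 27.6 in inhibitory neurons, 464 ± 27.6 in other excitatory neurons, 453 ± 25.5 in CA3 and 448 ± 25.8 in CA1 neurons (each n = 16). DG granule neurons were lower still at 320 ± 18.2, and their range of 288 to 354 did not overlap that of CA1 (406 to 488). Microglia stood at 253 ± 39.3 and OPCs at 246 ± 38.5, in no fixed order. Astrocytes were lowest at 140 ± 19.4, below ependymal nuclei in 15 of 15 libraries, and 34.5% of their App UMIs were ambient. In the other classes with n = 16 the ambient share of App was 5.38 to 19.8%.

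Aplp1, an APP relative found mainly in the nervous system, showed a large step between classes. Its level in oligodendrocytes was 564 ± 89.7 CPM (426 to 757), and in the next class, DG granule neurons, 133 ± 26.3 (96.4 to 168). Oligodendrocytes were above DG granule neurons in 16 of 16 libraries, with no overlap. Only 11.53% of the oligodendrocyte UMIs of Aplp1 were ambient. Cajal-Retzius neurons followed at 97.0 ± 25.6. In CA1 (93.8 ± 23.6), astrocytes (81.9 ± 15.4), other excitatory (79.8 ± 20.02) and inhibitory neurons (66.0 ± 17.2) levels overlapped and the ambient share was 24.0 to 43.8%. In CA3 neurons (74.95 ± 21.1) it was 53.7%. In microglia (52.4 ± 15.3) it was 69.2%, and in fibroblast (33.0 ± 10.0) and ependymal nuclei (51.3 ± 33.2) it was 100%, so free RNA could account for the whole level there.

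Aplp2, the most widely expressed relative, had a different order. Endothelial nuclei led at 390 ± 102 CPM (n = 13), followed by fibroblasts at 248 ± 52.1 (n = 15), oligodendrocytes at 216 ± 29.9 and Cajal-Retzius neurons at 210 ± 61.5 (both n = 16). Among the large neuronal classes inhibitory neurons were highest at 185 ± 20.4, above DG granule neurons at 123 ± 18.8, and CA1 neurons were lowest of all 15 classes at 81.8 ± 11.3. Microglia stood close to CA1 at 87.4 ± 35.5, above it in 8 of 16 libraries, with the widest relative spread of the tested classes (49.2 to 183). Of all 126 pairs of neighbours in the class orders of the 9 genes, only 2 had ranges that did not overlap, the App step from CA1 to DG granule neurons and the Aplp1 step from oligodendrocytes to DG granule neurons.

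**Figure D1:**
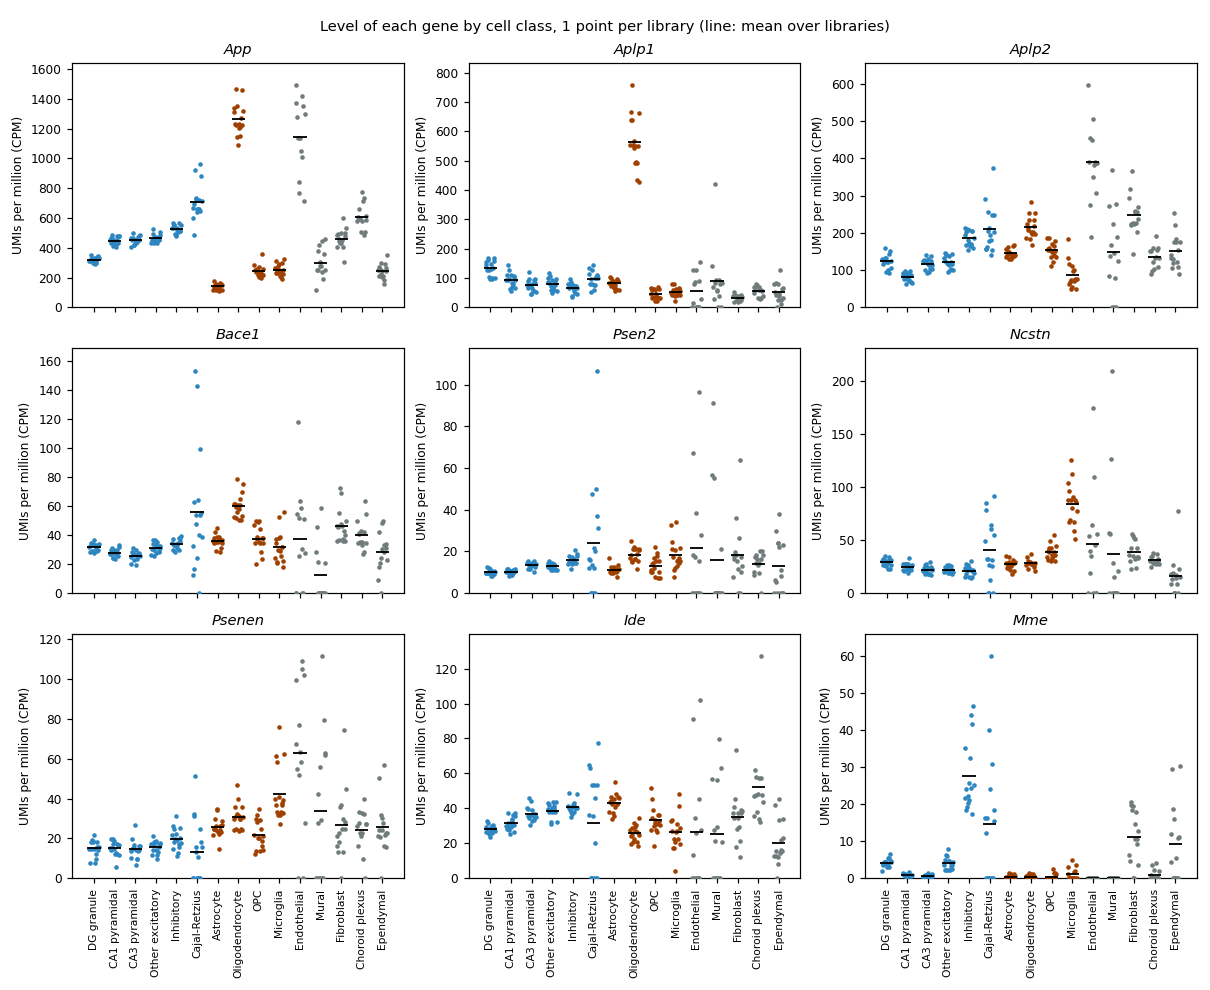
Level of each of the 9 genes (CPM, linear axis from 0) in 15 cell classes. Points are libraries with at least 5 nuclei of the class, lines are their means, and colours set neurons (blue), glia (brown) and other classes (grey) apart. App and Aplp1 peak in oligodendrocytes (1265 and 564 CPM), Ncstn in microglia (84.0 CPM) and Mme in inhibitory neurons (27.4 CPM).

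Bace1, the beta-secretase, was highest in oligodendrocytes at 60.2 ± 8.48 CPM (50.2 to 78.4, n = 16). Cajal-Retzius neurons were next at 56.0 ± 43.1, where libraries ran from 0 to 153 on few nuclei, and fibroblasts followed at 46.2 ± 11.4 (n = 15). The remaining classes with n = 16 lay between 25.6 ± 3.14 in CA3 neurons and 37.3 ± 8.90 in OPCs. Neighbours in this order overlapped throughout. The lowest oligodendrocyte library (50.2) nevertheless lay above the highest library of inhibitory neurons (39.1), so oligodendrocytes stood apart from the large neuronal classes.

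The 3 gamma-secretase genes did not share an order. Ncstn, which encodes the substrate-binding subunit nicastrin, was highest in microglia at 84.0 ± 19.6 CPM (50.6 to 125, n = 16), and only 2.75% of these UMIs were ambient. Endothelial nuclei were second (45.7 ± 50.4, on 23 UMIs), but stood at 26.5 CPM in nuclei of at least 1000 UMIs, so second place was not fixed. Microglia exceeded them in 11 of 13 libraries. The large neuronal classes were lower, from 20.97 ± 4.84 in inhibitory to 28.7 ± 3.78 in DG granule neurons, whose highest library (34.9) lay below the lowest microglial one. Psenen encodes the small subunit PEN-2 needed to activate the complex. Its means were highest in endothelial nuclei (62.8 ± 37.0, n = 13) and microglia (42.4 ± 14.1). The endothelial value rests on 33 UMIs, with libraries from 0 to 109 CPM, and was above microglia in 9 of 13 libraries. Mural nuclei came next at 33.6 ± 36.5, on 16 UMIs, and then oligodendrocytes (30.9 ± 6.36). Fibroblasts (26.9 ± 17.1), ependymal nuclei (25.7 ± 13.6) and astrocytes (25.6 ± 4.85) stood close together, and the large neuronal classes were lower, between 14.5 ± 4.61 in CA3 and 19.8 ± 5.30 in inhibitory neurons. Cajal-Retzius neurons were lowest at 13.3 ± 15.3, on 12 UMIs of Psenen. The ambient share of Psenen was 11.1% in microglia and 34.0% in CA3 neurons. Psen2, a presenilin and thus a catalytic subunit, had its highest means in Cajal-Retzius neurons (23.9 ± 27.3) and endothelial nuclei (21.6 ± 30.2), on 21 and 13 UMIs. Oligodendrocytes stood at 18.4 ± 3.49 and microglia at 18.3 ± 7.34. The lowest level of Psen2 was in DG granule neurons at 9.87 ± 1.30, and every pair of neighbours overlapped.

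Ide, insulin-degrading enzyme, was spread widely. Choroid plexus was highest at 52.5 ± 23.5 CPM (n = 14), then astrocytes at 43.0 ± 5.21, inhibitory neurons at 40.7 ± 3.65 and other excitatory neurons at 38.7 ± 3.98. DG granule neurons (28.1 ± 2.43), microglia (26.1 ± 10.3) and oligodendrocytes (25.7 ± 4.54) lay towards the low end, and ependymal nuclei were lowest at 20.4 ± 12.8 (n = 15). The ambient share of Ide was at most 14.4% in the classes with n = 16, in oligodendrocytes, and 21.6% there when read from barcodes with under 50 UMIs.

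Mme, which encodes the membrane protease neprilysin, was high in few classes. Its level was 27.4 ± 9.54 CPM in inhibitory neurons (17.4 to 46.5). Cajal-Retzius neurons (14.6 ± 17.5, 16 UMIs), fibroblasts (11.2 ± 7.16, 72 UMIs) and ependymal nuclei (9.22 ± 10.5, 20 UMIs) followed, with ambient shares of 2.30 to 6.40% and libraries at 0. Mme stood at 4.15 ± 1.098 in DG granule neurons and 3.99 ± 1.65 in other excitatory neurons. In CA1, CA3, microglia, astrocytes, oligodendrocytes and OPCs it was at most 0.993 CPM, and in the last 3 the ambient share was 73.3 to 100%. Only 0.798% of the inhibitory UMIs were ambient.

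Within inhibitory neurons 4 subtypes were told apart by markers. Mme stood at 56.0 ± 20.1 CPM in Pvalb-like neurons (34.9 to 107), the fast-spiking cells that target somata, and was above each library's Lamp5-like value in 16 of 16. Lamp5-like (30.7 ± 16.9) and Sst-like neurons (27.8 ± 13.2) had no fixed order. Vip-like neurons, which mostly inhibit other interneurons, stood at 3.62 ± 3.56 (0 to 12.8), below the lowest Sst-like library of 13.3. App, in contrast, was highest in Vip-like neurons at 776 ± 73.6 CPM (655 to 893), without overlap with Pvalb-like (470 ± 23.9, highest 495). Sst-like neurons followed at 464 ± 49.4 and Lamp5-like at 457 ± 45.1, each above the next in 8 of 16 libraries. Aplp2 was highest in Lamp5-like neurons at 253 ± 31.2 and above the Vip-like value (188 ± 35.0) in 16 of 16 libraries. Aplp1 was lowest in Pvalb-like neurons at 37.6 ± 9.33, below Lamp5-like neurons (65.02 ± 19.3) in 16 of 16 libraries. Psen2 in Sst-like neurons (18.5 ± 2.58) exceeded the Pvalb-like value (14.8 ± 3.02) in 15 of 16 libraries. For Bace1, Ncstn, Psenen and Ide neighbouring subtypes kept one order in at most 11 of 16 libraries.

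**Figure D2:**
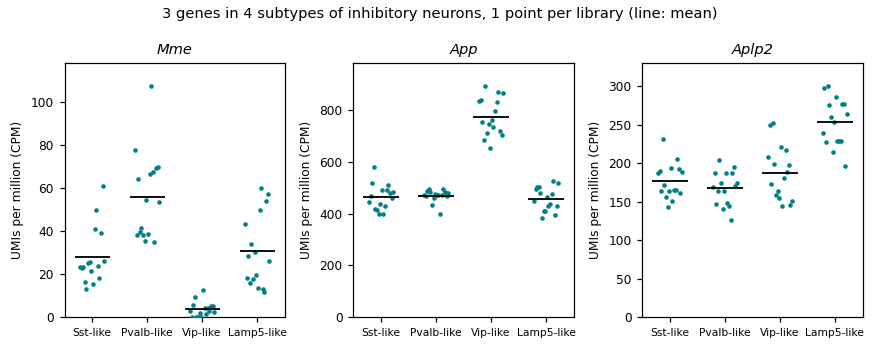
Levels of Mme, App and Aplp2 (CPM, linear axis from 0) in 4 marker-defined subtypes of inhibitory neurons, 1 point per library (n = 16) with the mean as a line. Mme is highest in Pvalb-like (56.0 CPM) and lowest in Vip-like neurons (3.62 CPM), while App is highest in Vip-like neurons (776 CPM).

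Some patterns lay in clusters left unnamed. In cluster 38, with 2596 nuclei, Ide reached 65.2 CPM, above its mean in any named class. This cluster had 4 other excitatory markers, but more markers of another class among its 10 leading genes. In cluster 9, with 120 nuclei, Ide stood at 73.3 CPM on few UMIs. That cluster had 6 endothelial markers, none among its 10 leading genes, low depth and 31.4% doublets before their removal. Cluster 2, with 757 nuclei, held Mme at 26.1 CPM and App at 569. These are sums over all libraries, given without an error.

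Across the 15 class means on the log2(CPM + 1) scale, the 3 genes most like each member were ranked by Pearson's r. For App they were Hs3st1 (0.82), Actn4 (0.77) and Klc1 (0.77). For Aplp1 they were Atrn (0.92), Zfp101 (0.90) and Tmem151a (0.90), and for Aplp2 Dop1a (0.86), Sema6a (0.83) and Hs3st1 (0.82), which App shares. Bace1 was nearest to Pccb (0.98), Crebl2 (0.97) and Smim7 (0.96). Of the gamma-secretase genes, Psen2 was nearest to Map3k7 (0.95), Tmem222 (0.95) and Wiz (0.95), Ncstn to Lcor (0.96), Slc30a7 (0.95) and Ube2e1 (0.94), and Psenen to Tmed2 (0.94), Atp6v1f (0.93) and Cfl1 (0.93). Ide was nearest to Zfp142 (0.96), Coq9 (0.96) and Hars2 (0.96), and Mme to Gm48837 (0.85), Plppr3 (0.82) and Kcnmb2 (0.82). These were the highest of 12588 candidate genes each. The classes share libraries and differ in depth, and over 9 classes with more nuclei 0 of the 27 genes ranked in the top 3 were the same. The leading gene for App was then Gm10791 (0.98), which lies inside App on the other strand. Among the members themselves, Bace1 and Psen2 were most alike (0.90) and Psenen and Mme least (-0.25).

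The question of the design was what tau and the loss of Ch25h change in each class. In total, 68 tests of a member in a class were possible for each comparison, since Mme was too low in the 4 glial classes. A gene is called changed when its adjusted p is under 0.05 by edgeR's quasi-likelihood test with Benjamini-Hochberg adjustment over all genes of the class. The p-values measure the spread between these animals. For tau in Ch25h+/+ mice 1 of the 68 was called, where 0.227% of all tests in the 8 classes were. There 5 of the 68 (7.35%) had an unadjusted p under 0.05 by edgeR, against 6.74% of all tests. For tau over both Ch25h genotypes 1 of 68 was called, where 1.06% of all tests were. For tau in Ch25h-/- mice 0 of 68 were called by edgeR and 0 by DESeq2, with 6 at an unadjusted p under 0.05 by each and 6 to which DESeq2 gave no adjusted p, and of all tests edgeR called 0.107% and had 7.93% at an unadjusted p under 0.05. The gene called was Aplp2 in microglia each time.

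Aplp2 rose in microglia with tau. In Ch25h+/+ Tau- mice the 4 libraries stood at 68.9, 49.2, 72.9 and 56.0 CPM, a mean of 61.7 ± 11.03. In Ch25h+/+ Tau+ mice they stood at 183, 133, 61.5 and 117 CPM, a mean of 124 ± 50.2. Of the Tau+ libraries 3 lay above every Tau- library, and replicate 3 lay within the Tau- range, so the groups overlapped. The log2 fold change was 1.01 (SE 0.25, adjusted p = 0.0367 by edgeR), in a class where 1.72% of 8677 genes were called. In the libraries labelled Ch25h-/-, Tau- animals had 75.2, 72.3, 49.96 and 77.4 CPM and Tau+ animals 112, 98.9, 69.9 and 100.3 CPM. Again 3 of 4 Tau+ libraries were above all Tau- libraries, with a log2 fold change of 0.43 that was not called (SE 0.24, adjusted p = 0.495 by edgeR, 0.726% of genes called). Over both genotypes the log2 fold change was 0.72 (SE 0.17, adjusted p = 0.0112 by edgeR, 7.16% of genes called), with 6 of 8 Tau+ libraries above the highest Tau- library (77.4 CPM). The difference between the 2 genotypes was -0.58 (SE 0.35, adjusted p = 0.9999 by edgeR), so the tau effect was not shown to depend on Ch25h.

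The call within Ch25h+/+ mice was thin. It was lost when any 1 of 7 libraries was left out (adjusted p 0.0617 to 0.175 by edgeR), namely all 4 Ch25h+/+ Tau- libraries and Ch25h+/+ Tau+ replicates 1, 2 and 4, with log2 fold changes of 0.765 to 1.097. Over both genotypes it held without each of the 16 libraries in turn (adjusted p 0.000387 to 0.0296 by edgeR). The first principal component was taken from these same counts after each group's mean was subtracted. In every group it set replicates 1 and 2 apart from replicates 3 and 4. A term for these sides takes up spread by construction, so its smaller p-values are no separate support. With a term for these 2 sides in the model, Aplp2 was called in Ch25h+/+ mice (log2 fold change 1.01, adjusted p = 0.00725) and over both genotypes (0.72, adjusted p = 0.0022), both by edgeR. Among replicates 1 and 2 alone the log2 fold change over both genotypes was 0.94 (adjusted p = 0.000497 by edgeR), and among replicates 3 and 4 alone it was 0.43 and not called (adjusted p = 0.592 by edgeR).

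Several measures of the microglia differed between Tau- and Tau+ libraries. Their median UMI count per nucleus was 1074 to 1252 in Ch25h+/+ Tau- libraries and 1502 to 1744 in Ch25h+/+ Tau+, and 1181 to 1571 and 1337 to 1987.5 in the Ch25h-/- groups. In nuclei of at least 1000 UMIs the log2 fold change was 1.04 in Ch25h+/+ mice (adjusted p = 0.0469 by edgeR). The part of the Aplp2 level that free RNA is estimated to account for was 17.7 to 31.3 CPM in Ch25h+/+ Tau- and 15.2 to 17.5 CPM in Ch25h+/+ Tau+ libraries. In the Ch25h-/- groups it was 28.0 to 34.7 CPM without and 14.2 to 24.4 CPM with tau. The summed level of the 10 microglial markers lay between 11676 and 13394 CPM in Ch25h+/+ Tau- and between 8526 and 11863 CPM in Ch25h+/+ Tau+ libraries, and between 11165 and 13163 and between 9161 and 12374 CPM in the Ch25h-/- groups. The 6 markers of border-associated macrophages, all detected, summed to 140 to 1335 CPM in Ch25h+/+ Tau- and 285 to 837 in Ch25h+/+ Tau+ libraries, 27.1 to 1045 in Ch25h-/- Tau- and 73.3 to 416 in Ch25h-/- Tau+. The 8 endothelial markers summed to 36.9 to 70.0 CPM in Ch25h+/+ Tau- and 43.3 to 66.6 CPM in Ch25h+/+ Tau+ libraries, with Cldn5, Slco1a4 and Abcb1a at 0 in both. In Ch25h-/- Tau- libraries they summed to 36.1 to 73.1 CPM, with Mecom and Adgrl4 at 0, and in Ch25h-/- Tau+ to 49.3 to 80.0 CPM, with Slco1a4 and Abcb1a at 0. The 9 markers of DG granule neurons, all detected, summed to 1253 to 1609 CPM in Ch25h+/+ Tau- and 1112 to 1356 CPM in Ch25h+/+ Tau+ libraries, and to 1374 to 1510 and 1114 to 1383 CPM in the Ch25h-/- groups. The 9 markers of oligodendrocytes, in which Aplp2 stood at 216 CPM, were all detected and had higher means in Tau+ libraries. They summed to 280 to 420 CPM in Ch25h+/+ Tau- and 322 to 481 CPM in Ch25h+/+ Tau+ libraries, which overlapped. In Ch25h-/- Tau- libraries they summed to 118 to 299 CPM and in Ch25h-/- Tau+ to 321 to 471 CPM, without overlap. The summed levels of the astrocyte, inhibitory and fibroblast lists had lower means in Tau+ than in Tau- libraries of both genotypes. The part of other cells, of free RNA and of depth in the Aplp2 result was not tested.

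The other 7 members tested in microglia were not called. App had the opposite sign to Aplp2 over both genotypes, with a log2 fold change of -0.25 with tau (SE 0.10, adjusted p = 0.122 by edgeR). In Ch25h+/+ mice, where Aplp2 was called, the value for App was only -0.096. In the libraries labelled Ch25h-/- the Tau- animals had 299, 248, 225 and 325 CPM and the Tau+ animals 236, 210.3, 202 and 193. They overlapped in 1 library of each group, with a log2 fold change of -0.41 (SE 0.13, adjusted p = 0.159 by edgeR). The ambient share of App was 25.5% in Ch25h-/- Tau- and 20.6% in Ch25h-/- Tau+ libraries. In Ch25h+/+ mice it was 20.2% without and 15.6% with tau. The part of free RNA in the App difference was not tested. Psen2 stood at 10.8, 7.38, 20.4 and 12.01 CPM in Ch25h+/+ Tau- and at 32.8, 21.2, 24.6 and 17.1 CPM in Ch25h+/+ Tau+ libraries. Those 2 groups overlapped and rest on 18 and 77 UMIs, and the log2 fold change of 0.92 was not called (SE 0.40, adjusted p = 0.283 by edgeR). Of the Ch25h-/- Tau+ libraries, replicate 1 stood at 33.9 CPM of Psen2 and the others at 12.7 to 15.9 CPM. The highest Tau- library of both genotypes stood at 21.4 CPM. Ncstn, whose level was highest in microglia, had a log2 fold change of -0.08 over both genotypes (SE 0.15).

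**Figure D3:**
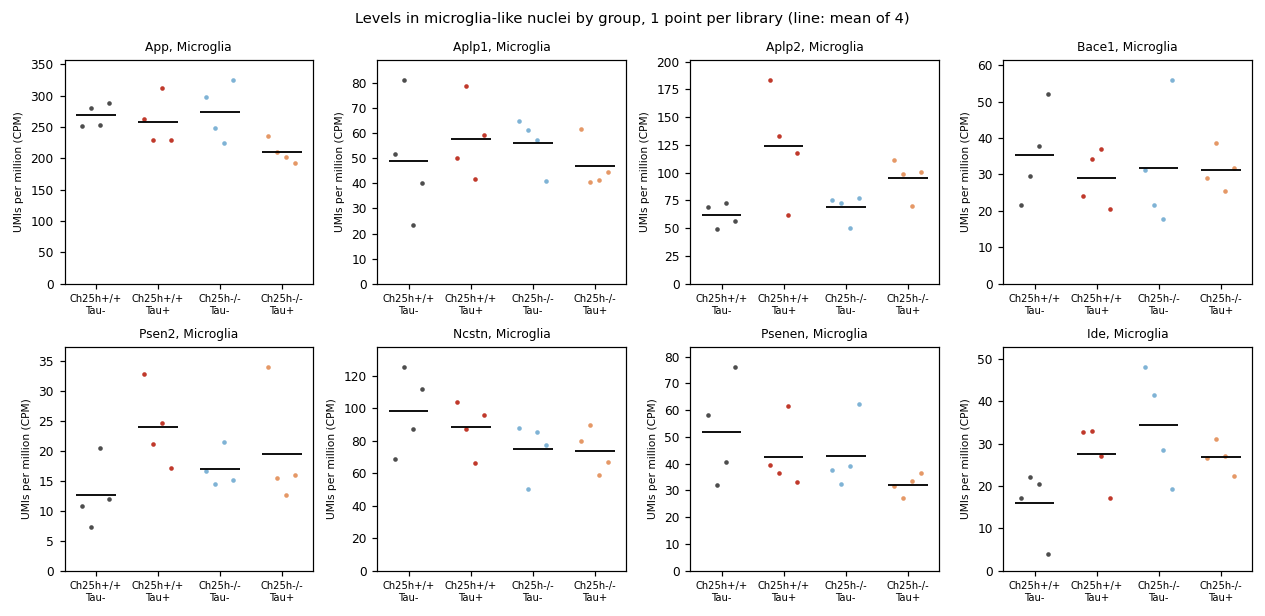
Levels of 8 genes in microglia-like nuclei (CPM, linear axis from 0) by genotype group, 1 point per library and the mean of 4 as a line. Aplp2 stands at a mean of 124 CPM in Ch25h+/+ Tau+ against 61.7 CPM in Ch25h+/+ Tau-, and 1 Ch25h+/+ Tau+ library, at 61.5 CPM, lies within the Tau- range.

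Psenen had log2 fold changes below 0 with tau in all 8 classes over both genotypes. In none did it pass the test, with a lowest adjusted p of 0.231 by edgeR. Of the genes tested in all 8 classes, 5.09% had a log2 fold change below 0 in each class. Within Ch25h+/+ mice the values were below 0 in 8 of 8 classes and within Ch25h-/- mice in 6, with 0.29 in OPCs (SE 0.30) and 0.01 in oligodendrocytes (SE 0.20). Over both genotypes they ran from -0.51 in DG granule neurons (SE 0.15, adjusted p = 0.28 by edgeR) to -0.12 in oligodendrocytes, with a median of -0.36. In DG granule neurons the Ch25h+/+ Tau- libraries had 18.9, 18.0, 18.7 and 21.7 CPM and the Ch25h+/+ Tau+ libraries 14.7, 7.83, 18.2 and 14.6. The libraries labelled Ch25h-/- had 15.6, 18.4, 14.2 and 15.5 CPM without tau and 14.8, 7.35, 12.3 and 9.65 with it. In both genotypes replicate 2 of the Tau+ group was the lowest library, and the groups overlapped by a single library. In CA pyramidal neurons the log2 fold change over both genotypes was -0.40 (SE 0.13, adjusted p = 0.293 by edgeR). In other excitatory neurons it was -0.34 (SE 0.11, adjusted p = 0.479), and in inhibitory neurons -0.39 (SE 0.14, adjusted p = 0.548), both by edgeR. Astrocytes stood at 27.8 ± 4.56 CPM in Tau- and 23.4 ± 4.32 CPM in Tau+ libraries (n = 8 each). With the Ch25h-/- label alone the groups did not overlap in CA pyramidal neurons (14.1 to 16.3 against 6.19 to 12.9 CPM) or in other excitatory neurons (15.5 to 17.5 against 9.46 to 14.3 CPM). That is 2 of 68 tests, below the background, since the groups of 4.57% of all tests did not overlap in that comparison. In Ch25h+/+ mice the groups of 0 of 68 tests of members did not overlap, against 3.65% of all tests, and over both genotypes 0, against 0.154%. The ambient share of Psenen in these neurons was 11.1 to 34.2% over the groups, and in DG granule neurons 17.2% in Ch25h+/+ Tau- and 12.9% in Ch25h+/+ Tau+ libraries, and 16% and 25.2% in the Ch25h-/- groups. The classes share animals and free RNA, so the 8 signs are not independent.

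**Figure D4:**
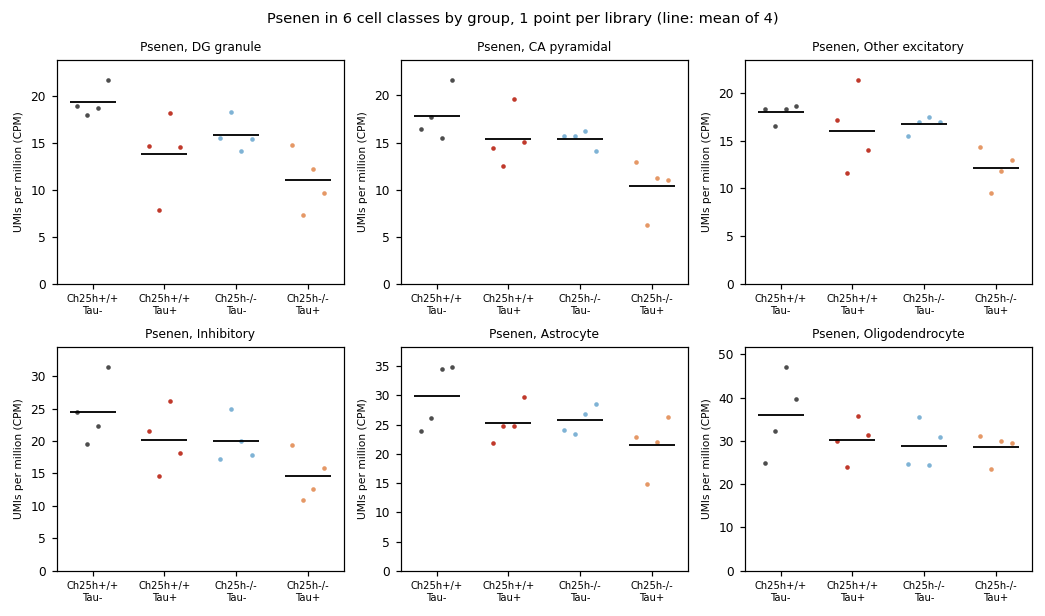
Psenen (CPM, linear axis from 0) in 6 cell classes by genotype group, 1 point per library and the mean of 4 as a line. In DG granule neurons the Tau+ means of 13.8 and 11.02 CPM lie below the Tau- means of 19.4 and 15.9 CPM, and the groups of each genotype overlap.

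No other member passed the test with tau. Over both genotypes 10 of the 68 tests had an unadjusted p under 0.05 by edgeR, 14.7% against 10.1% of all tests, and 5 of the 10 were Psenen. In Ch25h+/+ mice the highest log2 fold change of App was 0.15, in oligodendrocytes (SE 0.09, adjusted p = 0.766 by edgeR), where levels were 1201 ± 115 CPM in Tau- and 1339 ± 97.9 CPM in Tau+ libraries (n = 4 each). Bace1 in oligodendrocytes stood at 61.6 ± 11.8 and 58.5 ± 4.27 CPM in the same groups. Over all 8 classes the 95% intervals of the Bace1 tau effect over both genotypes lay within -0.65 and 0.30. Aplp2 in oligodendrocytes had a log2 fold change of -0.21 with tau (SE 0.09, adjusted p = 0.405 by edgeR), the opposite sign to microglia. Mme in DG granule neurons had a log2 fold change of -0.41 (SE 0.17, adjusted p = 0.484 by edgeR), on levels of 3.44 to 5.23 CPM. Ide in DG granule neurons of Ch25h+/+ mice had 0.21 (SE 0.09, adjusted p = 0.845 by edgeR).

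**Figure D5:**
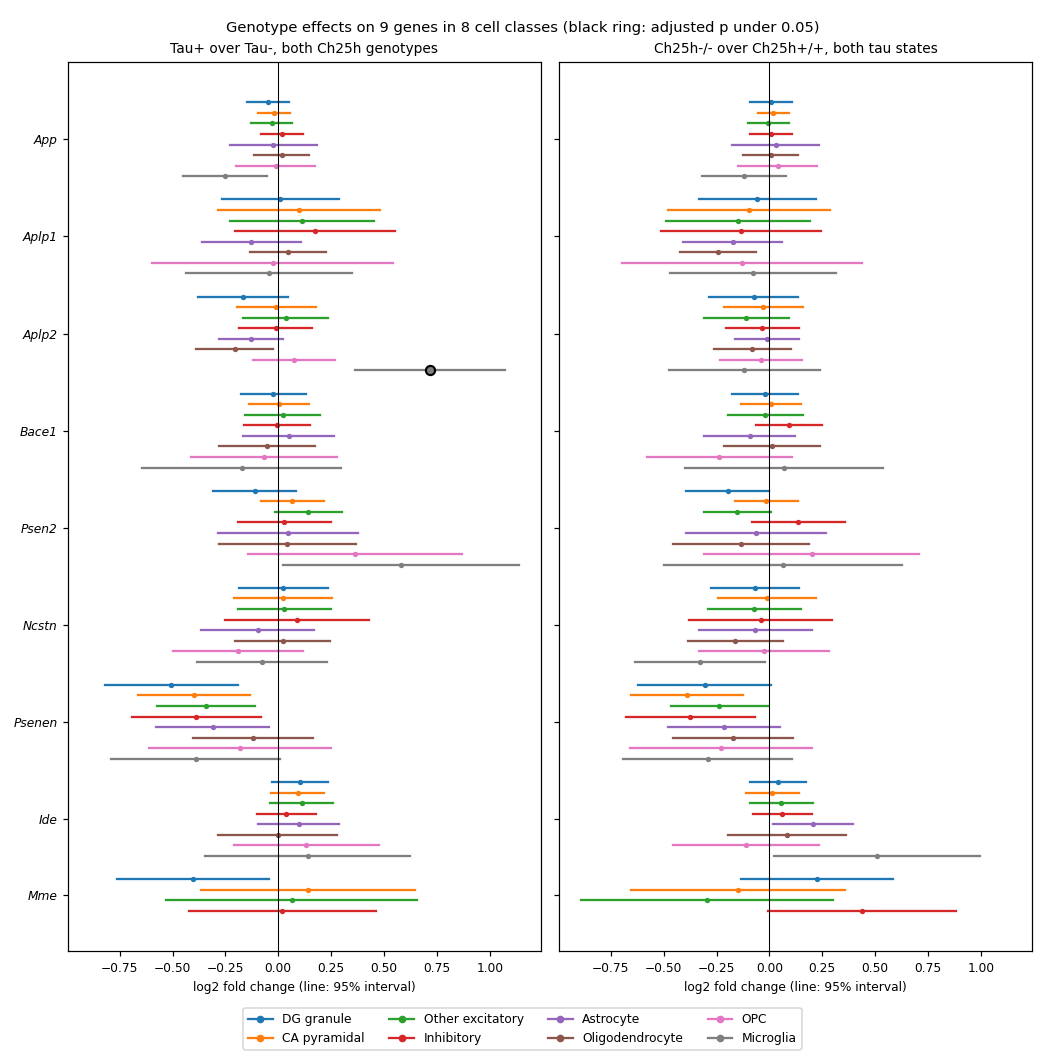
Log2 fold changes (x axis) of the 9 genes in 8 classes with 95% intervals, for Tau+ over Tau- (left) and Ch25h-/- over Ch25h+/+ by label (right). The ringed point is Aplp2 in microglia (0.72), the 1 member called, and the Psenen points on the left all lie below 0, from -0.51 to -0.12.

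Loss of Ch25h, by label, called no member in any class. By edgeR 0 of 68 were called in Tau+ mice, 0 in Tau- mice and 0 over both, where 0.00472%, 0.00283% and 0.0104% of all tests were called. DESeq2 called 0 in each too. At an unadjusted p under 0.05 edgeR had 7, 2 and 7 and DESeq2 5, 1 and 4, and of all tests edgeR had 3.22%, 3.29% and 2.58%. The smallest unadjusted p was for Aplp1 in oligodendrocytes of Tau+ mice. Ch25h+/+ libraries stood at 553, 638, 666 and 757 CPM and those labelled Ch25h-/- at 551, 492, 495 and 433. The log2 fold change was -0.38 (SE 0.12, adjusted p = 0.9997 by edgeR). Every Ch25h+/+ library was above every Ch25h-/- one, the nearest at 553 and 551 CPM, and the groups of 2.6% of all tests did not overlap in this comparison. Of the 68 tests of members 3 did not overlap there: this one, App in oligodendrocytes (1232 to 1468 CPM in Ch25h+/+ and 1150 to 1231 CPM in Ch25h-/-) and, in the other direction, Psen2 in OPCs (9.84 to 13.7 against 15.1 to 22.1 CPM). In the Tau- groups the same value was -0.11 (SE 0.12). Psenen was lower by label in 8 of 8 classes over both tau states, with log2 fold changes of -0.39 to -0.17, the lowest in CA pyramidal neurons (SE 0.13, adjusted p = 1 by edgeR). Aplp1 (-0.24 to -0.06), Aplp2 (-0.12 to -0.01) and Ncstn (-0.33 to -0.01) also had log2 fold changes below 0 in 8 of 8 classes, as did 5.82% of the genes tested in all 8. The classes share animals. In Tau- mice alone Aplp1 and Aplp2 were each above 0 in 7 of 8 classes, Ncstn was below 0 in 6 and Psenen in 8. In Tau+ mice alone Aplp1 and Aplp2 were below 0 in 8, Ncstn in 5 and Psenen in 7. These comparisons share their libraries with the tau comparisons above.

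Ide in microglia was not called either. Among Tau- mice its level was 15.9 ± 8.22 CPM in Ch25h+/+ and 34.4 ± 12.9 CPM in Ch25h-/- libraries, and among Tau+ mice 27.5 ± 7.45 and 26.7 ± 3.56 CPM (n = 4 each). The log2 fold change for Ch25h loss was 1.04 in Tau- mice (SE 0.37, adjusted p = 0.9997 by edgeR) and -0.02 in Tau+ mice (SE 0.29). The lowest library, at 4.002 CPM, rests on 1 UMI of Ide. Ide lies 2.79 Mb from the targeted gene Ch25h, and whether this closeness bears on the comparison was not tested. For the interaction of tau and Ch25h loss edgeR called 0 of 68 tests and DESeq2 0, where edgeR called 0% of all tests. At an unadjusted p under 0.05 there were 4 by edgeR (Ide in microglia, Psen2 and Psenen in OPCs, App in oligodendrocytes), where 4.03% of all tests had one, and 1 by DESeq2. Psen2 in OPCs stood at 12.6 ± 3.88 CPM without and 11.2 ± 1.74 CPM with tau in Ch25h+/+ mice, and at 9.98 ± 3.94 and 18.4 ± 2.92 CPM in the libraries labelled Ch25h-/-, on 27 to 60 UMIs a group.

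Beyond the members, 42 other genes of APP processing formed a list, of which 40 could be tested, in 284 tests over the 8 classes. For tau in Ch25h+/+ mice 0 were called by edgeR, with 23 (8.10%) at an unadjusted p under 0.05, against 6.74% of all tests. For tau in Ch25h-/- mice 1 was called, and over both genotypes 5 tests of 4 genes, all higher with tau, where 0.107% and 1.06% of all tests were called. Of these 5, 3 were in microglia, where 7.16% of genes were called. Over both genotypes 24 of the 284 tests (8.45%) had an unadjusted p under 0.05, against 10.1% of all tests, and in Ch25h-/- mice 26 (9.15%), against 7.93%. Gsap, which encodes the gamma-secretase activating protein, rose in microglia over both genotypes by 0.74 on the log2 scale (SE 0.12, adjusted p = 0.000852 by edgeR). Its level was 256 ± 29.9 CPM in Tau- and 404 ± 109 CPM in Tau+ libraries of Ch25h+/+ mice, where it was not called (adjusted p = 0.0551 by edgeR). In Ch25h-/- mice it was 212 ± 29.0 and 379 ± 70.9 CPM (n = 4 each), and called (log2 fold change 0.83, SE 0.17, adjusted p = 0.0297 by edgeR). In astrocytes Gsap rose over both genotypes by 0.33 on the log2 scale (SE 0.08, adjusted p = 0.0277 by edgeR, where 3.27% of astrocyte genes were called), and was called in neither alone (adjusted p = 0.112 and 0.625). Apbb2, an adaptor that binds the tail of APP, rose in microglia over both genotypes by 1.36 (SE 0.24, adjusted p = 0.00426 by edgeR). Apbb2 stood at 231 ± 42.0 and 632 ± 287 CPM in Ch25h+/+ mice, where 1 Tau+ library lay within the Tau- range, and at 229.6 ± 51.1 and 566 ± 165 CPM in Ch25h-/- mice. Within neither genotype was it called (adjusted p = 0.0557 and 0.0977 by edgeR). Plau, the urokinase-type plasminogen activator, rose in microglia over both genotypes by 1.65 (SE 0.38, adjusted p = 0.0134 by edgeR) and was called in neither alone (adjusted p = 0.2996 in Ch25h+/+ and 0.0828 in Ch25h-/- mice), on group means of 10.7 to 43.9 CPM. In microglia of Ch25h+/+ Tau+ replicate 3, the library of that group with the lowest Aplp2, Gsap (244 CPM), Apbb2 (249 CPM) and Plau (12.3 CPM) were also the lowest of their group. The same held in Ch25h-/- Tau+ replicate 3, with Gsap at 288, Apbb2 at 350 and Plau at 28.6 CPM. Bace2, the other beta-secretase, rose in astrocytes over both genotypes by 1.27 (SE 0.33, adjusted p = 0.0377 by edgeR) and was called in neither alone (adjusted p = 0.171 and 0.561), at group means of 1.66 to 4.75 CPM. The median log2 fold change over both genotypes was 0.00 for the list and 0.01 for the members. For Ch25h loss and for the interaction edgeR called 0 of the 284 tests, with 20 (Tau+), 6 (Tau-), 9 (both) and 22 (interaction) at an unadjusted p under 0.05. These are 7.04%, 2.11%, 3.17% and 7.75% of the list's tests, against 3.22%, 3.29%, 2.58% and 4.03% of all tests. Among the 8 classes tested, the alpha-secretases Adam10 (303 ± 37.9 CPM) and Adam17 (215 ± 19.9 CPM) were highest in microglia, and Adam9 in OPCs (50.1 ± 7.996 CPM). The APH-1 genes of gamma-secretase differed. Aph1a was highest in oligodendrocytes (34.8 ± 3.52 CPM), Aph1b in other excitatory neurons (18.6 ± 3.90 CPM) and Aph1c in astrocytes (13.9 ± 2.61 CPM, n = 16 each).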

How the data were processed

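The deposited matrices hold raw counts of UMIs per gene and barcode, for nuclei captured with 10x Genomics 3' chemistry per the labels. Their headers name Cell Ranger 4, while the submitters' processing notes name Cell Ranger 3.1.0, Seurat and mm10. Annotation and intron counting are not given in the sources used here.

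Nuclei had at least 500 UMIs, 300 genes and at most 5% mitochondrial UMIs. Scrublet's highest-scoring 0.8% per 1000 nuclei, 11045 of 147873, were removed. Leiden clustering (scanpy 1.11.5, resolution 1, 3000 variable genes, 50 components) left out the members and the pathway list. A cluster took a name when 3 or more of its markers stood 2-fold above the other nuclei. It stayed unnamed if over 50% of its nuclei were doublets or if its 10 leading genes held more markers of another class. Shallow clusters with no own marker among those 10 also stayed unnamed. For DG, CA1, CA3 and Cajal-Retzius the list's first marker was also required, a rule added after clusters were seen. The 7550 unnamed nuclei (3.83 to 9.81% per library) were left out of classes. Pairs of libraries shared 10 to 40 barcodes, at most 0.465%.

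Counts were summed per library and class and tested with edgeR 4.0.16 (TMM, filterByExpr, robust quasi-likelihood, 1 mean per group) in 8 classes and 7 contrasts, two-sided. DESeq2 1.42.0, other scaling and filters, library splits and each library left out were alternatives. The test was tried on simulated counts. All 9 members and the 3 genes most like each, by r over genes with at least 20 CPM in a class, were named, and up to 5 called genes of the pathway list per contrast. Members and lists were chosen with earlier results of these data known. Intervals of a fold change are 95%.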

Additional observations from a re-analysis of the deposited data

Results flagged for a closer look

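Of 80 groups of 4 libraries checked for a library far from the other 3, 3 were marked, and chance marks about 1 in 20. Psen2 in microglia of Ch25h-/- Tau+ replicate 1 stood at 33.9 CPM, against 12.7 to 15.9 CPM in the other 3 libraries. Psenen in other excitatory neurons of Ch25h+/+ Tau- replicate 2 was low at 16.5 CPM, against 18.3 to 18.7 CPM. Aplp2 in oligodendrocytes of Ch25h-/- Tau+ replicate 3 was low at 168 CPM, against 198 to 203 CPM.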

How the results depend on the processing

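The count of members called for tau in Ch25h+/+ mice was 0 to 1 with each library left out, and for tau over both genotypes 1 to 2. It was 2 without Ch25h+/+ Tau+ replicate 3, when App in microglia was also called (log2 fold change -0.31, adjusted p = 0.0357 by edgeR). For tau over both genotypes it was 0 among replicates 3 and 4 alone. There, in Ch25h+/+ mice, Aplp1 in inhibitory neurons was called in place of Aplp2 in microglia (log2 fold change 1.07, adjusted p = 0.0236 by edgeR). Counts for the other 5 contrasts stayed at 0 under every alternative run. The call of Aplp2 in microglia was lost in 9 alternatives: in Ch25h+/+ mice without each of 7 libraries and among replicates 3 and 4 alone, and over both genotypes among replicates 3 and 4 alone. The other single results with an unadjusted p under 0.05 were not called to begin with, and 1 gained a call, App in microglia as above. Of all 41 such results, in 1021 alternatives, 0 reversed direction. The nuclei of the setting with 3 times the background UMI count were the same nuclei. Levels in nuclei of at least 1000 UMIs stayed within 1 SD in 180 of 180 cases, and thinned to 1000 UMIs in 175 of 180. Ambient shares moved in 31 of 180 cases with barcodes under 50 UMIs, for example from 14.4 to 21.6% for Ide in oligodendrocytes and from 19.8 to 12.9% for App in microglia. The list of genes most like each member, compared after seeing the data, shared 0 of 27 genes between 15 and 9 classes. No paired analysis was run, because replicate numbers follow the order of the deposit and the labels pair no animals. A term for the 2 sides of the first principal component left all 7 counts of members called as they were. In microglia Aplp2 rests on 91 UMIs in Ch25h+/+ Tau- and Psen2 on 18.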

Other observations

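The first principal component set libraries apart in a way that moved with some members. Between replicates 1 and 2 of all groups and replicates 3 and 4, the mean level of Aplp1 had a ratio of 1.25 in DG granule neurons, 1.32 in inhibitory neurons and 1.79 in OPCs, but 0.98 in oligodendrocytes. Its ambient share was 65.2% in OPCs and 11.53% in oligodendrocytes. For Aplp2, the member called, the same ratio of mean levels ran from 1.03 in oligodendrocytes to 1.31 in microglia. For Psenen it ran from 0.77 in microglia to 0.93 in inhibitory neurons, and for Bace1 from 0.82 in oligodendrocytes to 0.98 in OPCs. The sides were drawn from these same counts, and how many of all genes have such ratios was not counted. The labels give no batch, and what sets these libraries apart was not tested.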
